A study of Mus musculus with 53 samples.

Results

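The 31 genes described here encode the enzymes and transporters of glycolysis, the core of the oxygen-sensing machinery around hypoxia-inducible factor 1 (HIF-1) and a set of well-known hypoxia-response targets. They were taken as a list of names, drawn up with earlier results of these data known, from 23847 gene loci in the deposited tables. All 31 were found, and all 31 reached 1 FPKM (fragments counted on a gene relative to transcript length and library size) in at least 1 sample, as did 11146 loci in all. Egln3 reached it only in WT cells after 1 h of IL-4 and in replicate 1 of the Stat6-/- cells at 24 h, and Eno1 did not exceed 1.87 FPKM in any sample.

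The RNA came from bone marrow-derived macrophages of C57BL/6 mice (WT) and of mice that lack Stat6 in every cell (Stat6-/-), 8 to 12 weeks old. Marrow cells of both genotypes were grown for 6 days with supernatant of L929 cells, a source of M-CSF, before any treatment. Interleukin-4 (IL-4) was given at 20 ng/ml for 1, 3, 6 or 24 h, and controls without IL-4 were taken at the same times and at 0 h. The 18 groups held 53 samples, 4 in each WT group except the 3 WT samples with 24 h of IL-4, and 2 in each Stat6-/- group. The study describes its WT values as averages over individual animals. Whether a replicate number marks the same animal in every group, and whether the Stat6-/- replicates are separate animals, is not stated, so for Stat6-/- cells the spread between samples may be technical.

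Glycolysis splits glucose into pyruvate, which yields ATP without oxygen and feeds mitochondria and biosynthesis. Glucose enters through carriers such as Slc2a1 (GLUT1), is trapped by hexokinases, committed by phosphofructokinase, and leaves as lactate through monocarboxylate carriers when pyruvate is reduced by lactate dehydrogenase. HIF-1α, encoded by Hif1a, is marked for destruction in oxygen by prolyl hydroxylases (Egln1, Egln3) and the ubiquitin ligase adaptor Vhl, and at low oxygen it raises transcription of many glycolytic genes. STAT6 is the transcription factor activated at the IL-4 receptor, and macrophages treated with IL-4 serve as a model of alternative activation.

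The libraries matched their labels. Stat6 lay at 58.7 to 90.6 FPKM in WT and at 14.3 to 24.0 FPKM in Stat6-/- samples, so part of the transcript was still read in the knockout. Retnla, a classical IL-4 target, reached 5040.7 FPKM with IL-4 in WT and at most 1.68 FPKM with IL-4 in Stat6-/- cells. Arg1 reached 99.3 FPKM in WT and 0.203 FPKM in Stat6-/- cells with IL-4, and Chi3l3 396 FPKM and 45.5 FPKM. Relative depth, read from the size of the smallest FPKM steps, spanned 0.706 to 1.554 across samples, with medians of 1.0 in WT and 1.006 in Stat6-/- samples. Macrophage markers were present in every sample (Csf1r at 610 to 1081 FPKM), whereas fibroblast and lymphocyte markers stayed at or below 0.393 FPKM, erythroid markers at or below 1.29 FPKM, and dendritic and mast cell markers at or below 1.20 FPKM, with Mcpt4 at 0 in all 53 samples. Markers of neutrophils and their progenitors were present in all samples and were higher in Stat6-/- than in WT controls for 6 of 6 tested markers.

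One feature of the Stat6-/- samples bears on these genes before any comparison. In the 24 h controls the 2 replicates were far apart for a part of the glycolytic genes, with replicate 1 the higher. Slc2a1 was 28.0 FPKM in replicate 1 and 8.91 FPKM in replicate 2 without IL-4, and 30.0 and 10.6 FPKM with it. Pgam1 was 205 and 73.5 FPKM without IL-4 and 201 and 77.7 FPKM with it. Pkm was 589 and 259 FPKM without IL-4, so that replicate 1 stood above and replicate 2 below the range of the 4 WT controls, 414 to 544 FPKM.

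Replicate 1 was at least 2-fold above replicate 2, on the log2(FPKM + 1) scale, for 8 of the 31 genes in the 24 h controls (Slc2a1, Ankrd37, Pgam1, Eno1, Pgk1, Pkm, Aldoa and Gapdh), against 2.64% of all loci. With 24 h of IL-4 this held for 5 of the 31 (Slc2a1, Pgam1, Aldoa, Pkm and Pgk1), against 2.59% of all loci. None was 2-fold lower in replicate 1 at either condition. The median log2 difference of the 31 genes was 0.36 in the 24 h controls and 0.37 with IL-4, whereas the median of all loci was -0.04 and -0.01. At 0 to 6 h, 0 or 1 of the 31 genes differed by 2-fold in any group. In 15 of the 31 genes replicate 1 was the higher in all 9 groups, compared with 18.7% of loci, and among these genes Mxi1 had a median log2 difference of 0.81, Ankrd37 of 0.75, Pkm of 0.63 and Pdk1 of 0.62. Hk2, P4ha1, Pfkp and Hk1 went the other way, with medians of -0.39, -0.37, -0.26 and -0.24. With 2 samples a group these are descriptions without a test.

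**Figure D1:**
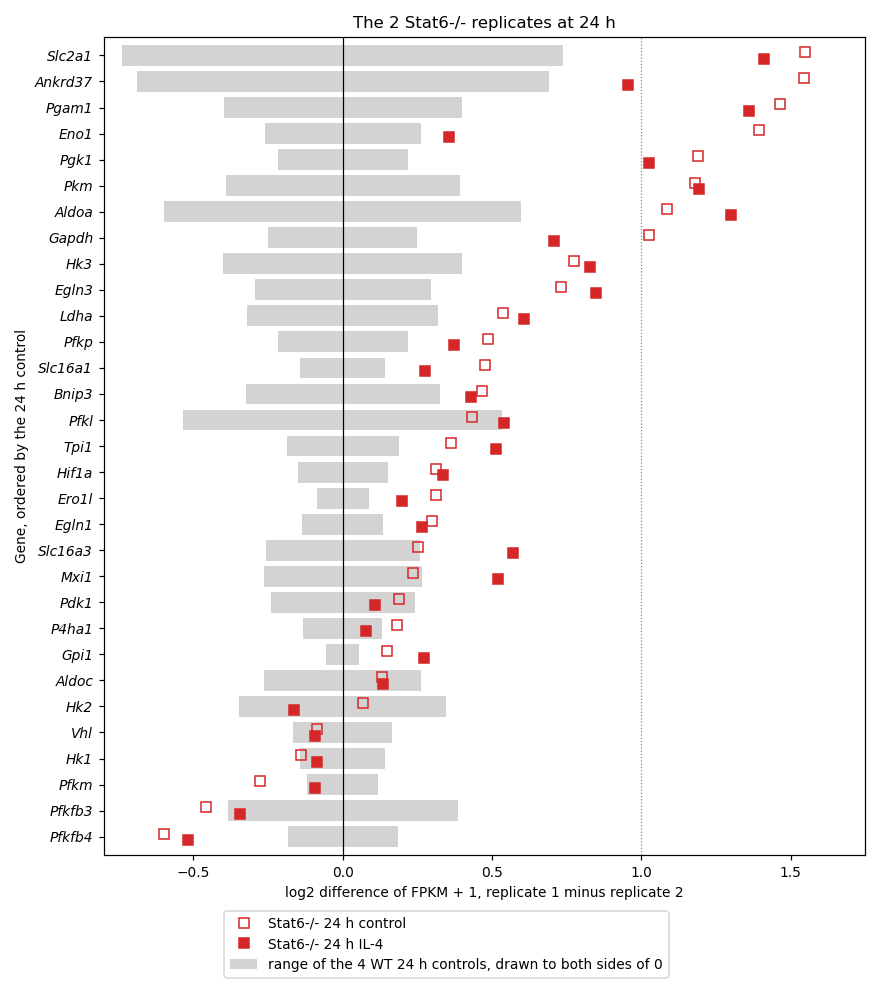
Difference between the 2 Stat6-/- replicates at 24 h (x axis, log2 of FPKM + 1, replicate 1 minus replicate 2) for each gene (y axis), without IL-4 (open squares) and with IL-4 (filled squares); grey bars give the range of the 4 WT 24 h controls on both sides of 0 and the dotted line marks 2-fold. In the controls Slc2a1, Ankrd37, Pgam1 and Eno1 lie furthest right, well outside the grey bars, while Pfkfb4 and Pfkfb3 lie left of 0.

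To find which of the 31 genes respond to IL-4, treated and control WT samples were compared at each time by limma on log2(FPKM + 1), with p-values adjusted (Benjamini-Hochberg) over all 11146 loci. A gene passed the test at an adjusted p under 0.05. At 1 h, 5 of the 31 genes were higher (all loci: 5.67%) and 2 lower (3.72%). At 3 h, 7 were higher (16.4%) and 4 lower (12.5%). At 6 h, 4 were higher (22%) and 5 lower (19.2%). At 24 h, 15 were higher (23.4%) and 8 lower (31.6%). By this test the share of higher genes was thus below the background at 6 h and above it at 24 h, at 48.4% of the 31. The share of lower genes at 24 h, 25.8%, was under the background. The place below the background at 6 h depended on the measure. All treated samples lay above all controls at 6 h for 9 of the 31 genes (23.8% of loci), and below them for 6 (22.3%).

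What a replicate number marks is not stated. Same-numbered treated and control WT samples deviated together at 3 h (correlations of 0.316 to 0.479) and, in part weakly, at 6 h (0.105 to 0.561). In Stat6-/- samples the correlations were 0.791 to 0.9. A fit that blocks on replicate number passed more genes at 3 and 6 h in WT. At 3 h 41.1% of all loci passed with this block. It added Egln3 as higher (adjusted p = 0.000316) and Hk1 (0.003), Hk2 (0.0126) and Pdk1 (0.0329) as lower. At 6 h it passed 19 of the 31 in place of 9, and 55.2% of all loci. Those added as higher were Slc16a1 (0.0056), Bnip3 (0.0074), Pgk1 (0.00986), Ero1l (0.0191), P4ha1 (0.0373) and Pfkfb4 (0.0478), and those added as lower were Pkm (0.00234), Egln3 (0.00463), Pdk1 (0.00663) and Pfkm (0.0366). All of these p-values are from limma, adjusted over all loci, and the sizes of the differences at 3 and 6 h are the same with and without the block.

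Past 2-fold, on the log2(FPKM + 1) scale and with the test passed, were 1 lower gene at 1 h (Pfkfb3, all loci 0.395%), 0 genes in either direction at 3 h (3.88%), 1 higher gene at 6 h (Vhl, 3.18%), and at 24 h 7 higher (3.91%) and 1 lower (4.58%). The 7 were Slc2a1, Hk2, Hk3, Pfkp, Pgam1, Slc16a1 and Ankrd37, and the lower gene was Mxi1. The median log2 difference of the 31 genes at 24 h was 0.31, whereas that of all loci was -0.07. At 24 h the treated and control samples did not overlap, with all treated samples higher, for 20 of the 31 genes (27.4% of loci) and with all treated samples lower for 6 (37.1%).

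**Figure D2:**
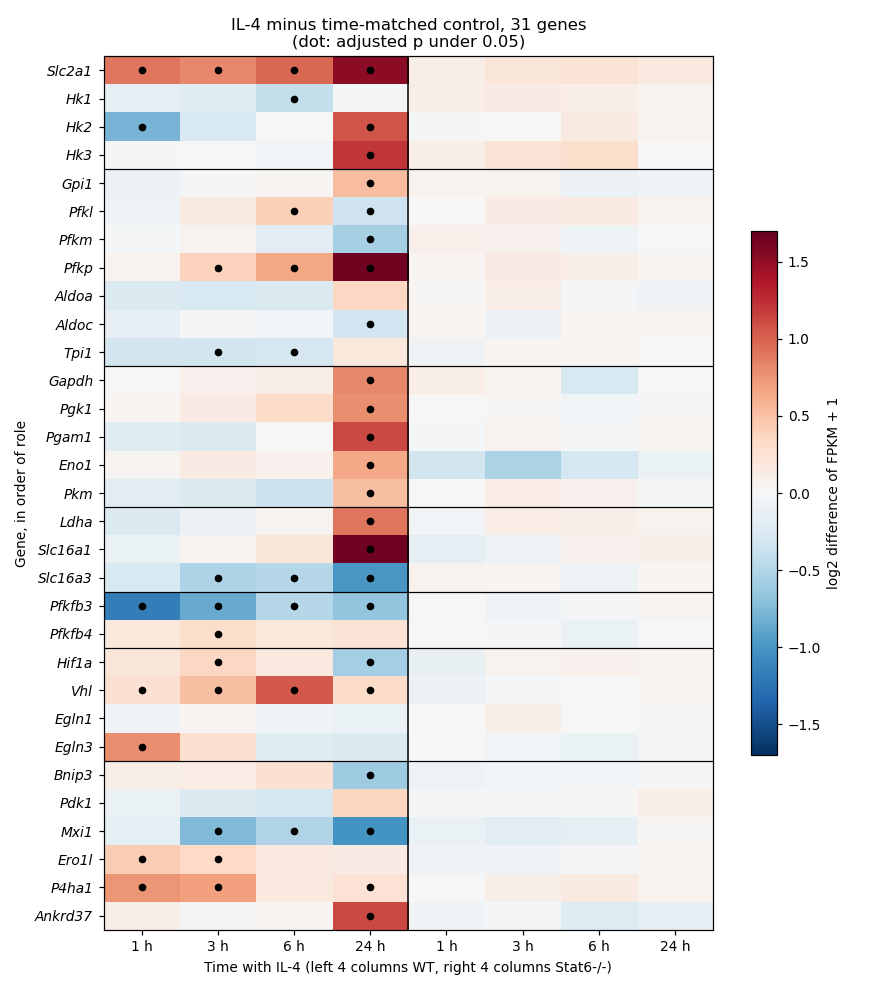
Log2 difference of FPKM + 1 between IL-4 and time-matched controls (colour scale, red higher and blue lower with IL-4) for 31 genes in order of role (rows) at 1, 3, 6 and 24 h in WT (left columns) and Stat6-/- cells (right columns), with a dot where the adjusted p was under 0.05. Dots stand in every WT column, with 23 at 24 h, and in no Stat6-/- column.

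At 1 h the genes that passed lay outside the main glycolytic enzymes, apart from the glucose carrier and 1 hexokinase. With the replicate block, where 17.1% of all loci passed, Tpi1 (log2 difference -0.31, limma adjusted p = 0.0241) and Hk1 (-0.15, 0.0464) also passed as lower. The groups of Tpi1 and Aldoa did not overlap, with the treated samples lower. Pfkfb3 is a kinase and phosphatase that makes fructose 2,6-bisphosphate, which switches on phosphofructokinase. It was 8.67, 8.11, 8.41 and 9.22 FPKM in the controls and 3.68, 3.56, 2.99 and 2.82 FPKM with IL-4. All treated samples were less than the lowest control, and the mean with IL-4 was 0.379 of the control mean (log2 difference -1.18 ± 0.09 SE, limma adjusted p = 2.11e-13). Hk2, the inducible hexokinase bound to mitochondria, was 6.44, 5.70, 5.45 and 5.94 FPKM in controls and 3.44, 3.21, 2.41 and 2.87 FPKM with IL-4 (log2 difference -0.79 ± 0.13, adjusted p = 2.16e-05). Slc2a1 moved the opposite way, from 12.1, 12.2, 11.7 and 12.3 FPKM to 22.1, 21.5, 26.5 and 24.2 FPKM, a ratio of means of 1.95 (log2 difference 0.91 ± 0.20, adjusted p = 0.00135). Without replicate 3 of the WT samples the Slc2a1 call was lost (adjusted p = 0.0523).

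The hypoxia-associated genes that rose at 1 h were P4ha1, Egln3, Ero1l and Vhl. P4ha1, the catalytic subunit of collagen prolyl 4-hydroxylase, was 11.3, 12.5, 10.8 and 11.4 FPKM in controls and 19.6, 19.9, 19.3 and 20.8 FPKM with IL-4 (log2 difference 0.74 ± 0.09, limma adjusted p = 1.01e-07). Egln3, the prolyl hydroxylase PHD3, was at low level, 0.286, 0.287, 0.315 and 0.389 FPKM in controls and 1.38, 1.11, 1.45 and 1.24 FPKM with IL-4, a ratio of means of 4.05 that the pseudocount shrank to a log2 difference of 0.80 ± 0.15 (adjusted p = 0.000104). The groups of both genes were separate. Ero1l, which reoxidizes the disulfide isomerase of the endoplasmic reticulum, lay at 9.69 to 11.4 FPKM in controls and at 14.0 to 15.6 FPKM with IL-4 (log2 difference 0.41 ± 0.08, adjusted p = 0.000145). The rise of Vhl at this time was small (log2 difference 0.26 ± 0.07, adjusted p = 0.00635).

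By 3 and 6 h most of these early changes had shrunk while Vhl grew. Vhl was 8.82, 8.68, 9.47 and 9.61 FPKM in the 3 h controls and 13.6, 12.7, 13.5 and 14.0 FPKM with IL-4 (log2 difference 0.51 ± 0.07, limma adjusted p = 6.71e-08). At 6 h it was 7.98, 8.41, 9.74 and 9.63 FPKM without and 19.7, 17.4, 19.0 and 21.5 FPKM with IL-4, 2.17 times the control mean (log2 difference 1.04 ± 0.07, adjusted p = 4.27e-16), and without WT replicate 1 it passed the test but was no longer past 2-fold. At 24 h the difference was back to 0.31 ± 0.07 (adjusted p = 0.000467). Pfkfb3 remained below its controls at 3 h, with 3.77, 3.48, 3.39 and 3.49 FPKM against 7.40, 6.84, 6.78 and 7.71 FPKM (log2 difference -0.85 ± 0.09, adjusted p = 4.24e-10). At 6 h it was 4.90, 4.81, 4.49 and 5.31 FPKM against 8.03, 5.92, 7.09 and 8.12 FPKM (-0.49 ± 0.09, adjusted p = 2.16e-05). The log2 difference of Hk2 was -0.25 ± 0.13 at 3 h and 0.00 ± 0.13 at 6 h, and neither passed without the replicate block.

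P4ha1 was still higher at 3 h, at 20.8, 21.5, 18.2 and 18.8 FPKM with IL-4 and 11.7, 12.6, 11.2 and 12.1 FPKM without (log2 difference 0.69 ± 0.09, limma adjusted p = 1.74e-07), and at 6 h its difference of 0.16 ± 0.09 passed with the replicate block but not without it (adjusted p = 0.166). Egln3 at 3 and 6 h likewise passed with the block only. Its 4 treated samples lay at 0.495 to 0.668 FPKM at 3 h and at 0.139 to 0.182 FPKM at 6 h, where the controls were at 0.312 to 0.369 FPKM. Hif1a itself rose at 3 h, with controls at 17.1 to 18.7 FPKM and treated samples at 22.4 to 24.8 FPKM (log2 difference 0.36 ± 0.08, adjusted p = 0.000475). Ero1l (log2 difference 0.33 ± 0.08) and Pfkfb4 (0.30 ± 0.10), the second isoform of the fructose 2,6-bisphosphate enzyme considered here, also passed as higher at 3 h.

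Among the glycolytic genes, Slc2a1 stayed well above its controls at 3 h, with 27.5, 21.9, 22.0 and 25.5 FPKM against 12.6, 13.3, 13.0 and 13.9 FPKM (log2 difference 0.82 ± 0.20). At 6 h it was 25.2, 29.9, 27.0 and 29.7 FPKM against 12.1, 13.9, 13.0 and 16.1 FPKM (0.98 ± 0.20). Pfkp, the platelet-type phosphofructokinase, was 33.6, 37.7, 30.6 and 27.3 FPKM with 3 h of IL-4 and 25.4, 28.3, 23.1 and 20.7 FPKM in controls, groups that overlapped (log2 difference 0.39 ± 0.13, limma adjusted p = 0.0216). At 6 h it was 34.3, 42.0, 34.9 and 32.0 FPKM against 21.6, 27.2, 21.6 and 19.5 FPKM (0.65 ± 0.13, adjusted p = 0.000104). Pfkl, the liver-type enzyme, also rose at 6 h, from a mean of 8.09 to 11.1 FPKM (0.41 ± 0.13, adjusted p = 0.0115). Hk1, the constitutive hexokinase, fell at 6 h, with 26.6 to 29.7 FPKM in controls and 20.4 to 21.8 FPKM with IL-4 (-0.41 ± 0.08, adjusted p = 8.4e-05), and Tpi1 was lower at 3 h (-0.32 ± 0.10) and 6 h (-0.28 ± 0.10). Of the 5 genes of lower glycolysis none passed at 1, 3 or 6 h in the fit of all groups without the replicate block. At 3 h all treated samples of Pgam1 and Pkm nevertheless lay below all controls. This held for 9 of the 31 genes (18.1% of loci), and 7 lay wholly higher (20.8%). The error of that fit pools all groups. The median standard deviation (log2) was 0.103 in WT and 0.418 in Stat6-/- control groups for Pgam1, and 0.165 and 0.462 for Pkm. With the replicate block Pgk1 was higher at 6 h (0.31 ± 0.10) and Pkm lower (-0.37 ± 0.10).

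Slc16a3 and Mxi1 were lower with IL-4 at 3, 6 and 24 h. Slc16a3 (MCT4), the carrier typical of cells that export lactate, was 17.6, 15.3, 15.7 and 15.3 FPKM with 3 h of IL-4 and 25.7, 25.2, 22.9 and 20.3 FPKM in controls (log2 difference -0.53 ± 0.10, limma adjusted p = 4.84e-05), and at 6 h it was 17.1, 16.6, 17.4 and 18.7 FPKM against 23.8, 26.9, 24.6 and 23.9 FPKM (-0.48 ± 0.10, adjusted p = 0.000111). Mxi1, an antagonist of MYC, was 5.30, 4.95, 5.84 and 5.56 FPKM with 3 h of IL-4 and 9.35, 9.25, 10.4 and 9.98 FPKM in controls (-0.75 ± 0.20, adjusted p = 0.0037). At 6 h Mxi1 was 6.90, 6.93, 7.07 and 7.62 FPKM against 10.7, 9.32, 11.5 and 11.0 FPKM (-0.52 ± 0.20, adjusted p = 0.0376), a call that was lost without any 1 of the 4 WT replicates (adjusted p = 0.106 to 0.182). The groups did not overlap for either gene at either time.

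**Figure D3:**
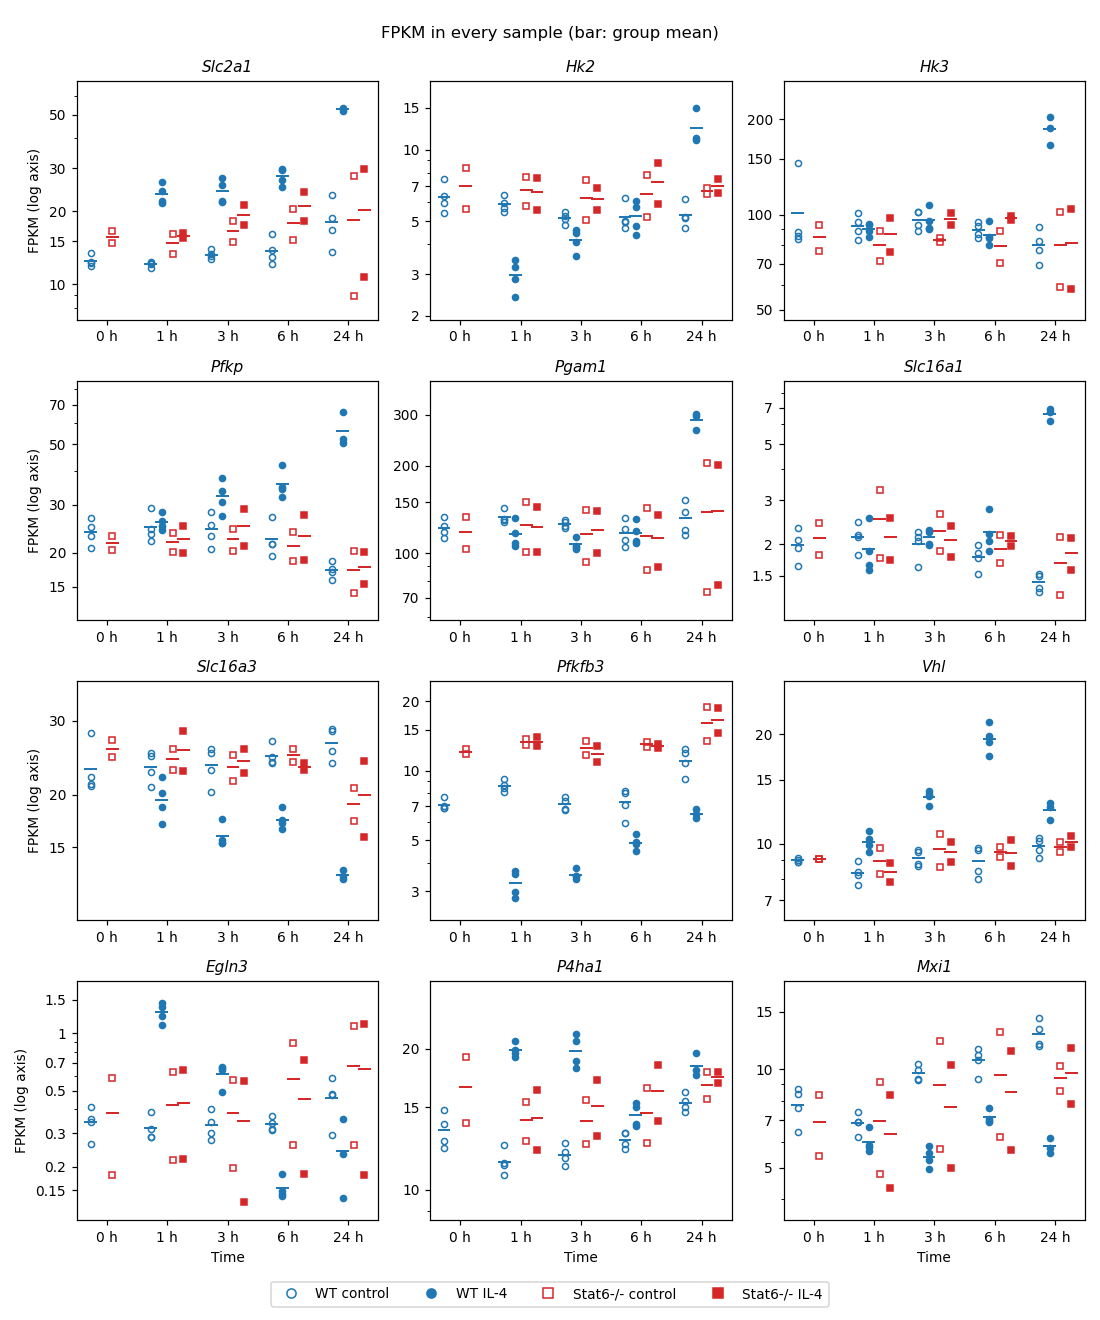
FPKM on a log axis (y) in every sample at 0, 1, 3, 6 and 24 h (x) for 12 genes, WT as circles and Stat6-/- as squares, open for controls and filled for IL-4, with a bar at each group mean. The WT treated samples leave the controls at 1 h for Slc2a1, Hk2, Pfkfb3, Egln3 and P4ha1, and at 6 h most for Vhl. They rise above the controls at 24 h for Hk3, Pgam1 and Slc16a1, after Pgam1 lay below its controls at 3 h. No gene passed the test in Stat6-/- cells.

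At 24 h the genes of glucose uptake and phosphorylation gave 3 higher of 4. Slc2a1 was 16.8, 13.5, 18.8 and 23.2 FPKM in controls and 53.2, 52.0 and 52.9 FPKM with IL-4, a ratio of means of 2.92 (log2 difference 1.52 ± 0.22, limma adjusted p = 2.81e-07). Hk2, which had been lower at 1 h, was 15.0, 11.2 and 11.0 FPKM with IL-4 and 5.18, 4.67, 5.22 and 6.21 FPKM in controls (1.07 ± 0.14, adjusted p = 7.07e-08). Hk3, the hexokinase abundant in myeloid cells, was 167, 188 and 204 FPKM with IL-4 and 82.3, 69.1, 77.1 and 91.5 FPKM in controls (1.21 ± 0.16, adjusted p = 5.22e-08). For none of these 3 genes did the groups overlap. Hk1 lay at 22.1 to 24.5 FPKM without and 21.7 to 24.7 FPKM with IL-4. FPKM are scaled by transcript length, so levels can be set side by side, and Hk3 made up 72.1 to 75.5% of the summed FPKM of the 3 hexokinases in controls and 80.8 to 85.9% with IL-4.

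Upper glycolysis was mixed, with 2 of 7 genes higher and 3 lower. Pfkp rose the most, with 65.9, 52.2 and 50.6 FPKM with IL-4 and 16.0, 18.7, 17.4 and 17.0 FPKM in controls, 3.25 times the control mean (log2 difference 1.64 ± 0.14, limma adjusted p = 3.86e-12). The other phosphofructokinases fell, Pfkm with 5.98 to 6.58 FPKM in controls and 3.67 to 4.17 FPKM with IL-4 (-0.57 ± 0.10, adjusted p = 6.3e-06) and Pfkl, with groups that overlapped, from a mean of 10.3 to 7.74 FPKM (-0.36 ± 0.14, adjusted p = 0.0326). Pfkp thereby made up 47.8 to 57.8% of the summed phosphofructokinase FPKM in WT controls and 81.4 to 84.3% with IL-4, and the sum itself was 32.4 to 35 FPKM without and 62.1 to 78.1 FPKM with IL-4. In Stat6-/- cells at 24 h the Pfkp share was 47.9 to 53.7% without and 50.7 to 51.6% with IL-4. The Pfkm locus overlaps Senp1 and the Pfkp locus overlaps Pitrm1, and since the library kit does not mark strand, part of these reads cannot be assigned to 1 gene of each pair with certainty. Gpi1, glucose-6-phosphate isomerase, rose from a mean of 69.5 to 100 FPKM (0.52 ± 0.08, adjusted p = 1.83e-06). Aldoc fell slightly (-0.33 ± 0.14, adjusted p = 0.0393), while Aldoa, the main aldolase, had a difference of 0.35 ± 0.23 (adjusted p = 0.206) and Tpi1 of 0.18 ± 0.11 (adjusted p = 0.173). The error pools all groups, and the median standard deviation of Aldoa (log2) was 0.138 in WT and 0.421 in Stat6-/- control groups. With the replicate block Aldoa passed as higher (limma adjusted p = 0.0191) and Tpi1 did not (0.128).

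All 5 genes of lower glycolysis passed as higher at 24 h in limma's test. With analysis of variance over the 18 groups and Tukey adjustment over all pairs of groups, Gapdh and Pgam1 still passed, whereas Pgk1, Eno1 and Pkm did not. The study's methods name tests of this kind in a different design, so its own calls may differ. Pgam1, phosphoglycerate mutase, was 120, 116, 139 and 153 FPKM in controls and 265, 296 and 303 FPKM with IL-4, 2.19 times the control mean (log2 difference 1.13 ± 0.23, limma adjusted p = 9.28e-05). Gapdh was 106, 126, 118 and 124 FPKM in controls and 178, 244 and 213 FPKM with IL-4 (0.82 ± 0.16, adjusted p = 2.88e-05). Pgk1, the first enzyme of the pathway to make ATP, was 49.3, 57.4, 49.2 and 56.6 FPKM without and 85.5, 92.5 and 99.0 FPKM with IL-4 (0.79 ± 0.21, adjusted p = 0.00146). Pkm, pyruvate kinase, was 450, 414, 498 and 544 FPKM without and 632, 690 and 710 FPKM with IL-4 (0.51 ± 0.22, adjusted p = 0.0492). In none of the 4 did the groups overlap. These genes have near-identical copies elsewhere: of the 100-base stretches of their transcripts, the length of 1 read, 78.0% of Gapdh, 67.0% of Pgk1, 39.7% of Pgam1 and 9.8% of Pkm also occur in transcripts of other genes, so their levels depend on how shared reads were split.

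The enolase values need the same care. The row named Eno1 held 0.217, 0.378, 0.209 and 0.449 FPKM in the 24 h controls and 1.11, 0.979 and 1.06 FPKM with IL-4, and 59.0% of its 100-base stretches occur in other transcripts. A row named Gm5506 at nearly the same place, chr4:150237324-150248873 (mm10), held 64.0, 60.5, 78.4 and 75.2 FPKM in controls and 122, 132 and 125 FPKM with IL-4 (log2 difference 0.86, limma adjusted p = 9.42e-05). Since Gm5506 also names a copy of the gene on another chromosome, the values of the Eno1 row alone are not a measure of enolase RNA.

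At the exit of the pathway the lactate carriers moved in opposite directions. Slc16a1 (MCT1), which carries lactate and pyruvate both ways, was 1.29, 1.49, 1.34 and 1.53 FPKM in the 24 h controls and 6.72, 6.20 and 6.88 FPKM with IL-4, the largest ratio of means at this time among the genes past 2-fold, 4.66 (log2 difference 1.65 ± 0.13, limma adjusted p = 2.15e-13). Slc16a3 was 28.7, 23.9, 28.3 and 25.4 FPKM in controls and 12.8, 13.3 and 12.6 FPKM with IL-4 (-0.99 ± 0.11, adjusted p = 7.11e-10). The Slc16a1 share of the summed FPKM of both carriers was 4.3 to 5.9% in controls and 31.9 to 35.3% with IL-4, so that Slc16a3 stayed the higher of the pair. Ldha, which turns pyruvate into lactate, was 154, 137, 171 and 171 FPKM without and 305, 293 and 293 FPKM with IL-4 (0.91 ± 0.12, adjusted p = 3.11e-08). Pfkfb3 was again lower with IL-4, at 6.80, 6.20 and 6.50 FPKM against 12.4, 9.23, 10.7 and 11.9 FPKM (-0.68 ± 0.10, adjusted p = 2.27e-07), so it was below its controls at all 4 times. Pfkfb4 did not pass at 24 h (0.23 ± 0.11, adjusted p = 0.0712) but passed as higher with the replicate block (limma adjusted p = 0.0159).

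The oxygen-sensing genes and hypoxia-response targets showed no common direction at 24 h, with 3 higher and 3 lower of 10. Hif1a was 23.3, 24.0, 25.0 and 26.0 FPKM in controls and 16.6, 15.9 and 16.0 FPKM with IL-4 (log2 difference -0.57 ± 0.09, limma adjusted p = 5.69e-07), the opposite of its direction at 3 h. Mxi1 was 12.0, 13.3, 14.3 and 11.8 FPKM without and 5.73, 5.55 and 6.15 FPKM with IL-4 (-1.02 ± 0.22, adjusted p = 0.00015). Bnip3, a mitophagy receptor, was 10.4, 12.2, 13.3 and 10.8 FPKM without and 6.09, 7.90 and 8.00 FPKM with IL-4 (-0.61 ± 0.17, adjusted p = 0.00256). Ankrd37 was higher, at 5.50, 4.11 and 4.39 FPKM against 1.24, 1.11, 1.76 and 2.41 FPKM, 2.86 times the control mean (1.13 ± 0.28, adjusted p = 0.00106). P4ha1 (0.25 ± 0.10) and Vhl (0.31 ± 0.07) also passed as higher. Pdk1, which blocks pyruvate entry into mitochondria, had treated samples at 12.6 to 17.0 FPKM and controls at 9.61 to 11.5 FPKM, separate groups whose difference missed the threshold (0.37 ± 0.16, adjusted p = 0.0561). That error pools all groups, and the median standard deviation of Pdk1 (log2) was 0.104 in WT and 0.463 in Stat6-/- control groups. Egln1, Egln3 and Ero1l did not pass. With the replicate block, where 66.2% of all loci passed, Pdk1 passed as higher (limma adjusted p = 0.00285). Egln1 (0.0271) and Egln3 (0.00375) then passed as lower.

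Markers of cell identity moved at the same time. In WT at 24 h, when 31.6% of all loci were lower with IL-4, so were 4 of 6 macrophage markers, and their summed level lay at 3274 to 3773 FPKM in controls and at 2604 to 2626 FPKM with IL-4. Of the 6 tested neutrophil and progenitor markers 4 were lower and their sum lay at 443 to 614 FPKM in controls and 220 to 320 FPKM with IL-4. Their part in the results above was not tested, and in bulk RNA fewer cells of a type and less RNA per cell cannot be told apart.

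HIF binds DNA at a short core, ACGTG or GCGTG, and STAT factors at TTCNNNNGAA. Promoters of the 31 genes were searched for both, and sequence is given for those past 2-fold in either direction at 24 h in WT. RefSeq (GRCm38.p6) windows of 250 bases before to 50 bases after each start were matched to all 31 genes, 30 by symbol and Ero1l under its newer name Ero1a, which gave 46 windows. The HIF core was present on either strand in 37 of the 46 (80.4%), compared with 43.8% of the 32851 windows of all genes. The 46 windows were also richer in CpG, with a median of 21 against 7, and both core forms contain a CpG. The core was found in 13 of the 15 genes higher at 24 h of IL-4 in WT, in 8 of the 8 lower ones and in 7 of the other 8. A gene was counted if any of its windows held the core. The 43.8% is a share of windows, so it is no background for these counts of genes. Absence of the core from the windows of Gpi1, Vhl and Tpi1 says only that these letters are not there. The STAT motif was in 5 of the 46 windows (10.9%), compared with 6.95% of all windows. A match is not a bound site.

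The 8 genes past 2-fold at 24 h in WT are shown through up to 200 bases before a start, 5′ to 3′ on the strand of the gene, with the HIF core in capitals on whichever strand it lies (CACGT and CACGC are its reverse complements). Overlapping matches run together in Slc16a1 and Ankrd37. In Hk3 the capitals mark the STAT motif only, and a core match further upstream in that stretch is left in lower case, whereas the Mxi1 stretch holds neither motif.
Slc2a1, chr4:119108545-119108740, plus strand: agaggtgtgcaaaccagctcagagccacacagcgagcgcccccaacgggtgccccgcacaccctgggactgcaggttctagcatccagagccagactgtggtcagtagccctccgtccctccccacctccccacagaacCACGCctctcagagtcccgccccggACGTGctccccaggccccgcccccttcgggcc
Hk2, chr6:82774455-82774654, minus strand: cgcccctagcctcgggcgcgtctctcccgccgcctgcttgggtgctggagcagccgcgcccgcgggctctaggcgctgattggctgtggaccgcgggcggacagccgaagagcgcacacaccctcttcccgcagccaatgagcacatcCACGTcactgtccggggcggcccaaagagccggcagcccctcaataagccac
Pfkp, chr13:6648772-6648971, minus strand: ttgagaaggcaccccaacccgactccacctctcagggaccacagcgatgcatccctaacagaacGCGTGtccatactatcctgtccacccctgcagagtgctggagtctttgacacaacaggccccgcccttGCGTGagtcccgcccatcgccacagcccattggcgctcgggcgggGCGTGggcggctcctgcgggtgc
Pgam1, chr19:41911671-41911870, plus strand: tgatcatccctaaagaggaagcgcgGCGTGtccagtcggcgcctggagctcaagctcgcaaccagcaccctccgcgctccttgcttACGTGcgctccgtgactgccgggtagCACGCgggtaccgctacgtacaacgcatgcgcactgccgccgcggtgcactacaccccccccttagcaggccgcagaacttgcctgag
Slc16a1, chr3:104638464-104638663, plus strand: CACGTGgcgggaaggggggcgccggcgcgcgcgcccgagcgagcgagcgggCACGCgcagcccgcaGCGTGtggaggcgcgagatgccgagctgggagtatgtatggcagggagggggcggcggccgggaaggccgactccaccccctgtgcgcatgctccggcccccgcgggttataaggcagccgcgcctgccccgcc
Ankrd37, chr8:45999851-46000050, minus strand: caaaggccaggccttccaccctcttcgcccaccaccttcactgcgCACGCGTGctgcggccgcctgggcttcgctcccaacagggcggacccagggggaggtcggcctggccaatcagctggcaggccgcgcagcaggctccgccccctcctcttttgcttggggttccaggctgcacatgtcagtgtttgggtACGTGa
Hk3, chr13:55021386-55021585, minus strand: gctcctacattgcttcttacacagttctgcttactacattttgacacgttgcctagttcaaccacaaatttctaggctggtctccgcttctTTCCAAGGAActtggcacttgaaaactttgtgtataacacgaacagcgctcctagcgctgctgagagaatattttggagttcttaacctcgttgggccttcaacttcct
Mxi1, chr19:53310306-53310505, plus strand: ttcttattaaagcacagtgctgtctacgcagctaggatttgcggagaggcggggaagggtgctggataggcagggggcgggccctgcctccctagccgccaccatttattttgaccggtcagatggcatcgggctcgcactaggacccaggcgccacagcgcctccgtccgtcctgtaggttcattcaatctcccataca

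The Slc2a1 stretch holds 2 core matches, that of Hk2 1, those of Pfkp, Pgam1 and Ankrd37 3 each and that of Slc16a1 4, and that of Mxi1 0. Mxi1 has further RefSeq starts: of its 3 windows, the other 2 hold 1 core match each and 1 of them a STAT motif, so the count depends on the start chosen. The number of matches was not tested against the size of the response.

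To ask whether these changes need Stat6, the same comparisons were made in Stat6-/- cells. There 0 of the 31 genes passed at 1, 3, 6 or 24 h in limma's test, where 0% of all loci passed at each time. At an unadjusted p under 0.05 there were 0 of the 31 genes at every time. Of all loci there were 51, 131, 88 and 37 at 1, 3, 6 and 24 h (0.458%, 1.18%, 0.79% and 0.332%). These shares are below those that such a threshold gives without any change, so this fit could miss responses here. It ignores that same-numbered Stat6-/- samples deviated together, with correlations of 0.791 to 0.9. With the replicate block 0 of the 31 genes passed at each time, and 2, 4, 4 and 1 of all loci did. The log2 differences of the 31 genes at 24 h lay between -0.14 (Ankrd37) and 0.16 (Slc2a1), with standard errors of 0.09 to 0.37. Pfkfb3 at 1 h was 13.0 and 13.8 FPKM without and 12.7 and 14.0 FPKM with IL-4, and Vhl at 6 h was 9.80 and 9.21 FPKM without and 10.2 and 8.68 FPKM with it. Slc16a1 at 24 h was 2.14 and 1.25 FPKM without and 2.12 and 1.58 FPKM with IL-4. At 24 h Hk2 was 6.87 and 6.51 FPKM without and 6.59 and 7.50 FPKM with IL-4, and Hk3 102 and 58.9 FPKM without and 104 and 58.2 FPKM with it. Pfkp was 20.3 and 14.2 FPKM without and 20.2 and 15.4 FPKM with IL-4, and Slc16a3 20.8 and 17.3 FPKM without and 24.0 and 15.8 FPKM with it. Mxi1 was 10.3 and 8.57 FPKM without and 11.6 and 7.81 FPKM with IL-4, and Ankrd37 4.89 and 1.02 FPKM without and 3.35 and 1.24 FPKM with it. For Slc2a1, Pgam1 and Pkm the replicates were far apart, but within each replicate the treated and control values were close.

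The difference between the genotypes in the response to IL-4 was tested as an interaction. At 1 h, 2 genes had a response higher in WT (Ero1l and P4ha1, all loci 2.21%) and 1 lower (Pfkfb3, 1.15%), and Pfkfb3 was past 2-fold (0.332%), with a difference of -1.17 ± 0.15 (limma adjusted p = 7.6e-07). At 3 h, 2 were higher (Vhl and P4ha1, 6.98%) and 2 lower (Slc16a3 and Pfkfb3, 4.22%), with 0 past 2-fold (3.48%). At 6 h, 1 was higher (Vhl, 9.29%) and 2 lower (Hk1 and Pfkfb3, 7.19%), and Vhl was past 2-fold (2.59%), at 1.05 ± 0.12 (adjusted p = 4.13e-09). The interaction of Slc2a1 at these 3 times, and those of Hk2 (adjusted p = 0.0548) and Egln3 (0.0904) at 1 h, did not pass in this fit, and with the replicate block those of Hk2 (0.000214) and Egln3 (1.22e-06) at 1 h and of Slc2a1 at 6 h (0.0311) did.

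At 24 h the interaction passed for 15 of the 31 genes, 10 higher in WT (12.2% of loci) and 5 lower (14.8%), of which 7 higher (3.34%) and 2 lower (3.51%) were past 2-fold. The 10 were Slc2a1, Hk2, Hk3, Gpi1, Pfkp, Gapdh, Pgam1, Ldha, Slc16a1 and Ankrd37, and the 5 were Pfkm, Slc16a3, Pfkfb3, Hif1a and Mxi1. The difference was 1.59 ± 0.24 for Pfkp (limma adjusted p = 2.62e-06), 1.56 ± 0.21 for Slc16a1 (5.94e-07), 1.20 ± 0.26 for Hk3 (0.000629) and -1.03 ± 0.18 for Slc16a3 (2.7e-05). It was 1.35 ± 0.36 for Slc2a1 (0.00424) and 1.27 ± 0.47 for Ankrd37 (0.04), the 2 genes whose Stat6-/- replicates differed the most in the 24 h controls. Without Stat6-/- replicate 1 the Ankrd37 difference was 0.98 (adjusted p = 0.0732) and that of Slc2a1 1.28 (adjusted p = 8.5e-05). The calls of Pgam1 and Mxi1 were lost without any 1 of the 4 WT replicates (adjusted p = 0.0543 to 0.126), and that of Ankrd37 without WT replicate 1, 2 or 3 (0.0813 to 0.183). Without WT replicate 1, WT replicate 2 or Stat6-/- replicate 1, 5 genes in place of 9 were past 2-fold. In a fit of only the samples compared, 8 of the 31 genes passed, and Slc2a1 (adjusted p = 0.18), Hk3 (0.0552) and Ankrd37 (0.167) were among those that did not.

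**Figure D4:**
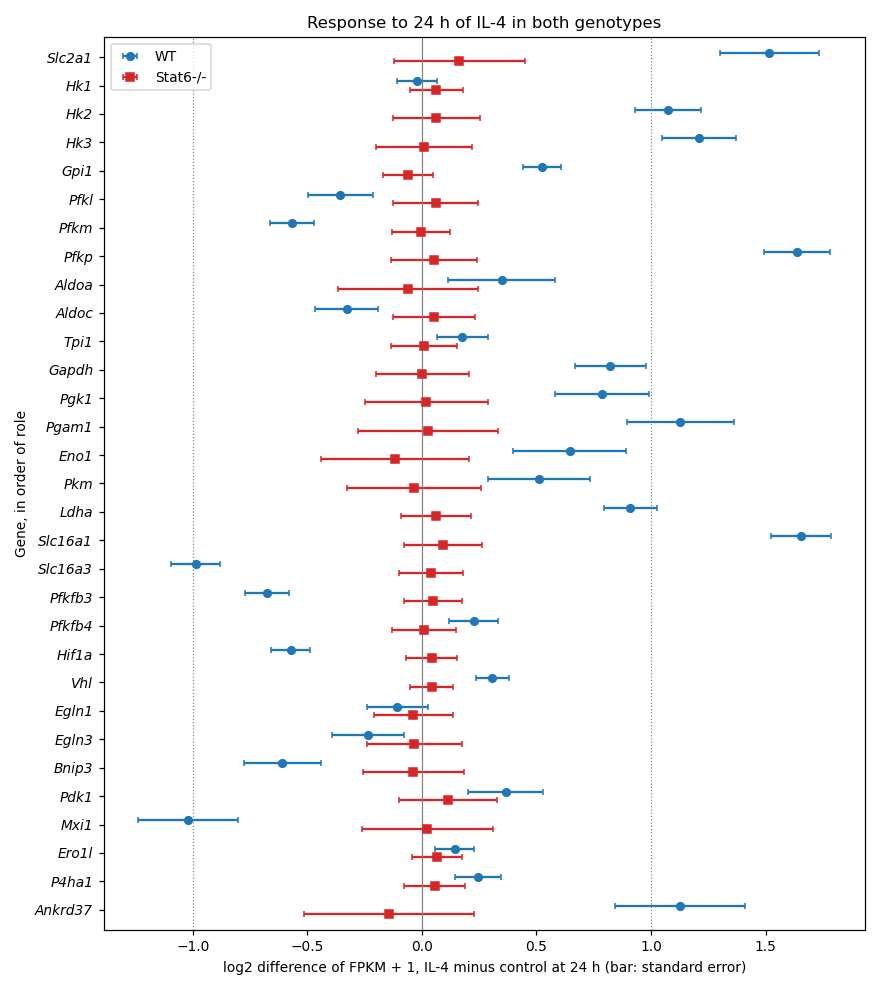
Log2 difference of FPKM + 1 between 24 h of IL-4 and controls (x axis, bars are standard errors) for each gene in order of role (y axis), WT as circles and Stat6-/- as squares; dotted lines mark 2-fold in either direction. The WT values span -1.02 (Mxi1) to 1.65 (Slc16a1), while the Stat6-/- values lie between -0.14 and 0.16.

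Without IL-4, the genotypes differed most in Aldoc and Pfkfb3. Over the 5 control times, 6 of the 31 genes were higher (8.03% of loci) and 3 lower (13.3%) in Stat6-/- cells, with 1 lower past 2-fold (0.188%). That gene was Aldoc, the aldolase known from brain and also a hypoxia target. At 0 h it was 21.9, 19.4, 19.9 and 19.6 FPKM in WT and 9.56 and 6.68 FPKM in Stat6-/- cells (log2 difference over all times -1.08 ± 0.07, limma adjusted p = 1.07e-14). Pfkfb3 was higher without Stat6, at 11.7 and 12.4 FPKM against 7.01, 6.87, 6.87 and 7.71 FPKM at 0 h (0.65 ± 0.05, adjusted p = 1.07e-12), and the groups of neither gene overlapped at 0 h. With IL-4, Pfkfb3 in WT cells lay still further below the Stat6-/- samples. The remaining 7 had log2 differences of 0.12 to 0.48 in size, the largest for Ankrd37 (0.48 ± 0.14, adjusted p = 0.0151), the gene with the wide Stat6-/- replicates. All these tests count the samples of the 5 times as independent, although Stat6-/- cells had only 2 replicate numbers. Replicate 1 was the higher in all 9 Stat6-/- groups for 15 of the 31 genes (18.7% of loci). The p-values may therefore be too small for a difference between genotypes. Without either Stat6-/- replicate, 17 of the 31 genes passed in place of 9, in fits where the lone Stat6-/- sample of a group is assumed to vary like the other groups. The 6 tested neutrophil and progenitor markers were higher in the same Stat6-/- controls, and their part in these differences was not tested.

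Time in culture without IL-4 also moved these genes. Between 0 and 24 h in WT controls, 3 of the 31 were higher (5.67%) and 6 lower (11.6%), with Aldoc lower past 2-fold (0.754%). Aldoc fell to 7.06, 6.05, 7.46 and 7.30 FPKM at 24 h in WT (log2 difference -1.41 ± 0.13, limma adjusted p = 8.43e-10) and to 4.74 and 4.24 FPKM in Stat6-/- cells (-0.72 ± 0.18, adjusted p = 0.0433), where it was the 1 gene of the 31 that passed (0.565% of loci). The WT count of 9 was 3, 4 and 5 without WT replicates 1, 3 and 4, and the Stat6-/- count of 1 was 11 without Stat6-/- replicate 1 and 4 without replicate 2. The genes that rose in WT controls were Mxi1 (0.66 ± 0.20, adjusted p = 0.0204), Pfkfb3 (0.56 ± 0.09, adjusted p = 1.9e-05) and Hif1a (0.36 ± 0.08, adjusted p = 0.00125). All 3 were lower with IL-4 than without at 24 h. Mxi1 at 0 h was 6.42, 7.64, 8.43 and 8.69 FPKM, so that its 24 h treated samples at 5.55 to 6.15 FPKM lay below the starting level. For Pfkp, which fell by 0.44 ± 0.13 on the log2 scale in controls (adjusted p = 0.0181), the treated samples were above both the 0 h and the 24 h controls.

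**Figure D5:**
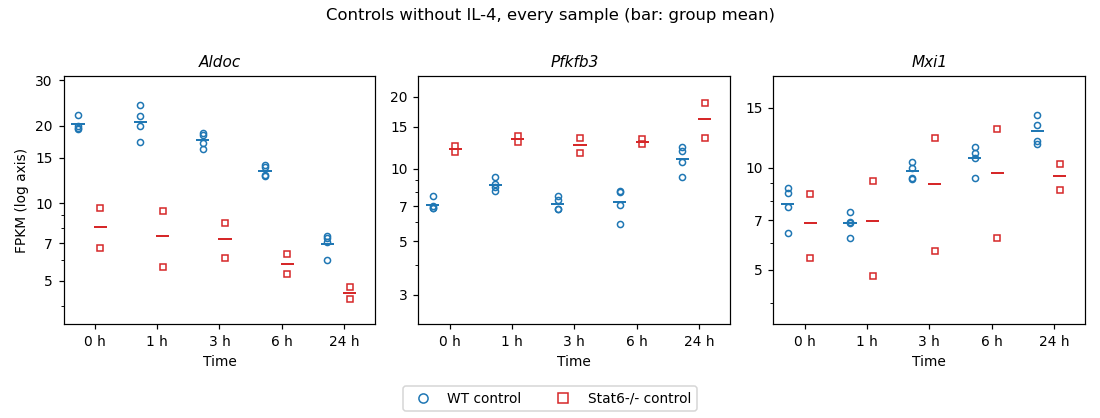
FPKM on a log axis (y) in every control sample without IL-4 at 0, 1, 3, 6 and 24 h (x) for Aldoc, Pfkfb3 and Mxi1, WT as circles and Stat6-/- as squares, with a bar at each group mean. WT Aldoc declines from 19.4 to 21.9 FPKM at 0 h to 6.05 to 7.46 FPKM at 24 h, above the Stat6-/- samples at 0 h, and Pfkfb3 is higher in the Stat6-/- samples.

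Other genes of the same pathways were counted against the same background at 24 h in WT, 23.4% of loci higher and 31.6% lower. Of 20 tested further genes of glycolysis and gluconeogenesis 5 were higher and 6 lower, of 12 genes of pyruvate entry into mitochondria 4 were higher and 1 lower, of 9 genes of the pentose phosphate pathway 3 were higher and 0 lower, and of 13 glycogen genes 2 were higher and 5 lower. Slc2a6, a glucose carrier of leukocytes, had a log2 difference of 1.53 at 6 h (limma adjusted p = 3.68e-06) and Pck2, the mitochondrial phosphoenolpyruvate carboxykinase, of -1.07 at 6 h (adjusted p = 1.8e-07). The glycogen phosphorylase Pygl fell by 1.12 on the log2 scale and glycogenin, Gyg, by 1.07, both at 24 h, and Ppp1r3c was higher at 6 h, by 1.02.

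Further genes of the HIF pathway and further hypoxia targets also held genes of both directions. Of 13 tested HIF pathway genes 4 were higher and 3 lower at 24 h, and of 28 tested hypoxia targets 13 were higher and 9 lower, with the same background. Cited2, which competes with HIF-1α for its coactivator, had a log2 difference of 1.98 at 1 h (limma adjusted p = 2.97e-20), 1.02 at 3 h and -1.25 at 24 h. Vegfa, the textbook HIF target, fell by 2.32 on the log2 scale at 6 h (adjusted p = 7.42e-17) and had a difference of -1.31 at 24 h. Bhlhe40, a transcriptional repressor, rose by 4.63 at 24 h (adjusted p = 2.51e-14), Ier3 by 4.19 at 3 h (1.47e-22) and Tfrc, the transferrin receptor, by 2.65 at 6 h (8.69e-06). Slc2a1 and Vegfa, both HIF targets, thus went in opposite directions at 6 and 24 h.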

How the data were processed

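RNA of 53 samples was read by poly-A RNA-seq (TruSeq libraries from 1 µg of RNA, paired reads of 100 bases). The authors mapped reads to mm10 and deposited FPKM per locus, and the submitters' processing notes name TopHat2 2.0.7 and Cufflinks 2.0.2. The study states default parameters for both, and the library kit does not mark strand. The annotation version is not given in the sources used here. Groups were taken from the sample labels. Replicate 1 of WT cells with 24 h of IL-4 was not analysed here.

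FPKM are not counts, so log2(FPKM + 1) was fitted with limma 3.58.1 (R 4.3.3), with 1 mean for each of 18 groups and a variance prior that follows intensity, over the 11146 loci that reached 1 FPKM in any sample. The spread of a gene was estimated over all 18 groups together, so standard errors of WT comparisons also hold the spread between Stat6-/- replicates. Fold changes on this scale understate those of low genes. Tests were two-sided, and p-values were adjusted by Benjamini-Hochberg within each comparison. A gene was called past 2-fold if it also had an absolute log2 difference of at least 1. The script was tested on simulated data. Tables were handled with Python 3.11.15, pandas 2.3.3 and numpy 2.4.6.

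Replicate numbers were checked as pairs by correlating deviations from group means between treated and control samples of a number. Every pair passed 0.1 at 3 h (0.316 to 0.479) and 6 h (0.105 to 0.561) in WT, but not at 1 h (lowest 0.027) or 24 h (lowest 0.096). In Stat6-/- samples it was 0.791 to 0.9 over 2 pairs. Samples of unlike numbers were not correlated, so 0.1 is a cut without a reference. The alternatives were a pseudocount of 0.1, no filter, a mean of at least 5 FPKM, quantile normalization, scaling to the 75th percentile, no trend, a replicate block, only the samples compared, analysis of variance with Tukey adjustment, and leaving out each replicate.

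Relative depth came from 6633 low loci, where 100.0% of 1378 sample pairs lay within 2% of 1 common ratio. Total reads are unknown, so no counting intervals are given. The 31 genes and the further gene lists were chosen with earlier results of these data known. Values per sample or group are given for genes past 2-fold in any comparison and for the 3 largest in each direction that passed in each WT comparison with IL-4, and of the further lists at most the 4 largest past 2-fold are named.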

Additional observations from a re-analysis of the deposited data

Results flagged for a closer look

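Single samples stood apart from the other 3 of their group by Dixon's criterion in 7 of 112 groups tested (14 genes in 8 WT groups of 4), and chance alone gives about 1 in 20. Hk3 was 146 FPKM in replicate 1 of the WT 0 h controls and 84.0 to 88.4 FPKM in the others. Slc16a3 was 28.15 FPKM in the same sample (others 21.0 to 22.1 FPKM) and 17.56 FPKM in replicate 1 of WT cells with 3 h of IL-4 (others 15.3 to 15.7 FPKM). Pfkfb3 was 7.705 FPKM in replicate 4 of the WT 0 h controls (others 6.87 to 7.01 FPKM). Aldoc was 20.17 FPKM in replicate 1 with 3 h of IL-4 (others 16.0 to 16.6 FPKM) and 13.75 FPKM in replicate 4 with 6 h of IL-4 (others 12.5 to 12.7 FPKM). Egln3 was 0.4949 FPKM in replicate 4 with 3 h of IL-4 (others 0.640 to 0.668 FPKM).

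The response to IL-4 differed between WT and Stat6-/- cells by limma's interaction test in 25 cases, given as the log2 difference in WT minus that in Stat6-/- cells. At 1 h these were Pfkfb3 (-1.172), Ero1l (0.4803) and P4ha1 (0.7355). At 3 h they were Slc16a3 (-0.5778), Pfkfb3 (-0.7676), Vhl (0.5282) and P4ha1 (0.5971). At 6 h they were Hk1 (-0.5216), Pfkfb3 (-0.465) and Vhl (1.051). At 24 h the positive ones were Slc2a1 (1.355), Hk2 (1.009), Hk3 (1.202), Gpi1 (0.5852), Pfkp (1.585), Gapdh (0.8199), Pgam1 (1.102), Ldha (0.85), Slc16a1 (1.561) and Ankrd37 (1.27). The negative ones were Pfkm (-0.5625), Slc16a3 (-1.026), Pfkfb3 (-0.7267), Hif1a (-0.6159) and Mxi1 (-1.044).

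The rows named Gm5506, outside the 31 genes, had levels far above those of the Eno1 row. The row at the Eno1 position on chromosome 4 had a mean of 126.3 FPKM with 24 h of IL-4 in WT and 69.55 FPKM in controls, and the row on chromosome 18 had 319.8 and 177.2 FPKM.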

How the results depend on the processing

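Of the 31 genes, the number that passed stayed within 1.5 times its value under most alternatives. Single differences were followed for genes past 2-fold and for the 3 largest in each direction in each WT comparison with IL-4. None of those changed sign, and the other differences that passed were not followed under every alternative. Hk1 at 24 h in WT, near 0 and not passed, went from -0.02 to 0.01 with the replicate block. With the replicate block the count was 19 at 6 h of IL-4 in WT (9 without it), 6, 8 and 6 for the genotype difference in response at 1, 3 and 6 h (3, 4 and 3), 18 for WT controls over 24 h (9) and 9 for Stat6-/- controls over 24 h (1). In the same order, 55.2% of all loci passed with the block, then 7.55%, 21.4% and 30.2%, then 37.1%, and 16.8%. The block changed no other count by that much. In fits of only the samples compared it was 18 at 3 h and 18 at 6 h in WT (11 and 9), 8 for the genotype difference at 24 h (15) and 0 for Stat6-/- controls over time. Scaling to the 75th percentile also gave 0 there. Analysis of variance with Tukey adjustment gave 7 at 3 h in WT and 4 for WT controls over 24 h. Leaving out 1 replicate at a time gave 3 to 6 for WT controls over 24 h, 6 to 17 for Stat6-/- minus WT controls and 4 to 11 for Stat6-/- controls over 24 h. The cause of these shifts was not tested. Among single genes, the 24 h genotype difference of Ankrd37 also missed the threshold with a pseudocount of 0.1 (adjusted p = 0.101) and without the filter (0.0626), and Tukey adjustment lost 4 calls at 3 h in WT (Pfkp, Tpi1, Pfkfb4 and Mxi1), 3 at 6 h (Pfkl, Tpi1 and Mxi1) and 7 at 24 h (Pfkl, Aldoc, Pgk1, Eno1, Pkm, Bnip3 and P4ha1). Wide Stat6-/- replicates and 2 samples a group limit what the knockout comparisons can detect.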
